A study of Mus musculus with 13 samples.

Results

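The mitochondrial carriers of the SLC25 family were measured as mRNA in the hearts of mice carrying E3A, a knock-in allele of Cpt1b whose product is less sensitive to malonyl-CoA. They were taken by name, as the symbols formed by Slc25a and a number, of which the count files hold 47. The rule left out 3 of them, Slc25a1 (citrate), Slc25a17 (peroxisomal) and Slc25a20 (carnitine). That left 44 carriers among 24061 gene symbols, and 39 of the 44 had enough reads to be tested.

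Each of the 13 libraries was made from polyadenylated heart RNA of 1 male C57BL/6N mouse, 13 weeks of age and kept on chow. There were 4 WT/WT hearts, with no E3A allele, 4 WT/E3A hearts, with 1 copy, and 5 E3A/E3A hearts, with 2 copies. All groups share strain, sex, age and diet, and the allele is inherited, so it is present in every cell that transcribes Cpt1b. The labels mark 4 libraries as potential outliers, namely E3A/E3A replicates 1 and 2 and replicate 1 of both WT/E3A and WT/WT, so each comparison is given for all 13 libraries and for the other 9, with 3 hearts of each genotype.

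SLC25 proteins are nuclear-encoded and sit mostly in the mitochondrial inner membrane, where they exchange nucleotides, phosphate, amino acids, keto acids, cofactors and metals between cytosol and matrix. In heart muscle the most prominent exchange is that of matrix ATP for cytosolic ADP, which, with phosphate import, feeds oxidative phosphorylation. Aspartate/glutamate and oxoglutarate carriers move reducing equivalents inwards as limbs of the malate-aspartate shuttle. Fatty acid oxidation also needs coenzyme A, NAD, FAD and adenine nucleotides inside the matrix, and members of this family carry these in.

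Total counts ran from 20.1 M to 52.6 M reads per library. Cardiomyocyte markers (Myh6, Actc1, Tnnt2, Tnni3, Myl2, Ryr2, Pln and Nppa) summed to 70544 CPM or more in every library, which fits the heart label. CPM are counts per 1 M reads scaled between libraries by TMM factors, so they are not raw shares of reads. The 6 hemoglobin genes in the files were listed at 0. The 4 noted libraries stood apart: Myh6 took 6.59 to 9.49% of their reads and 3.90 to 4.61% of reads in the other 9. Replicates varied by 28.9% (biological coefficient of variation) over 13 libraries and by 7.85% over 9. The labels describe separate hearts but give no litters or extraction days, so p-values measure the spread between these hearts. In whole heart RNA, fewer cells of a type and less RNA per cell cannot be told apart.

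The sequence before the start of Slc25a42 is shown because this carrier had the lowest p in the comparison of E3A/E3A with WT/WT, and that before Slc25a5 because this ADP/ATP carrier was lower in all 4 noted libraries. Both are the 250 bases before the RefSeq start, read 5′ to 3′ along the gene, from RefSeq's GRCm38.p6 table. Capitals mark CCAAT, the letters bound by NF-Y, or its reverse complement ATTGG. The first lies at chr8:70212282-70212531 on the minus strand and the second at chrX:36795347-36795596 on the plus strand.
Slc25a42: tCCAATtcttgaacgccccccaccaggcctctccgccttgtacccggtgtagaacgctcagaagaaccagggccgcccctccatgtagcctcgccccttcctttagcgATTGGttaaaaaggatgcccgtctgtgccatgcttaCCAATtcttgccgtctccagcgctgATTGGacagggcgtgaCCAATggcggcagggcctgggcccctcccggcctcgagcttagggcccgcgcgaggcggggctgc
Slc25a5: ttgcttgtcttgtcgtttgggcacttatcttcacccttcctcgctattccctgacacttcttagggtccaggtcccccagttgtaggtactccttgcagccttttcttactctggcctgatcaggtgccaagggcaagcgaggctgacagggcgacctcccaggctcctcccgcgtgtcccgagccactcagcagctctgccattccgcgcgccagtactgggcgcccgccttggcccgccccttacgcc

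Slc25a42 had 5 CCAAT matches on either strand and Slc25a5 had 0, and each window held 1 GC box (GGGCGG or its complement CCGCCC). The RefSeq table matched 33 of the 44 carriers, through 43 windows. CCAAT was present for 16 of these 33 carriers (48.5%), in 44.2% of their windows and in 33.8% of all 32851 windows of the same length. A GC box was found for 22 of 33 carriers (66.7%), in 67.4% of their windows against 32.7% of all windows. TATAAA was found for 2 carriers, in 4.65% of their windows against 12.4% of all, and the E-box CACGTG for 6, in 16.3% against 6.02%. None of these motifs contains another, and a match only describes the letters of the window.

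Levels between carriers were compared as CPM per kb of transcript. In the 4 WT/WT hearts Slc25a4 stood first by a wide margin. Slc25a4, also called ANT1, is the ADP/ATP exchanger of heart and skeletal muscle (chromosome 8, 46206797 to 46211284). It averaged 2881 CPM per kb (SD 952, n = 4) and made up 59.4% of the summed level of the 44 carriers, or 55.5% in the 3 WT/WT hearts that were not noted. Slc25a3, the phosphate carrier (chromosome 10, 91116574 to 91124059), came second at 935 CPM per kb (SD 61.6), 19.3% of the sum. Slc25a11, the oxoglutarate/malate carrier (chromosome 11, 70644196 to 70647479), came next at 336 CPM per kb (SD 12). Slc25a5, or ANT2, the ADP/ATP exchanger of dividing and non-muscle cells, followed at 154 CPM per kb (SD 24.4). These first 4 places did not overlap one another between WT/WT hearts. The lowest Slc25a5 value (118) lay just above the highest Slc25a34 value (116) but below the highest Slc25a39 value (122). Without the noted heart the lowest Slc25a5 value was 159.9 and the highest Slc25a39 value 60.1.

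Below them the order was less certain. Slc25a34, whose substrate is not settled, averaged 92.6 CPM per kb (SD 16.1). Slc25a39, the mitochondrial glutathione carrier, averaged 75.4 (SD 31.2). The aspartate/glutamate carriers Slc25a13 and Slc25a12 averaged 53.9 (SD 13.0) and 42.5 (SD 4.04). Slc25a42, which brings coenzyme A into the matrix in exchange for adenine nucleotides, averaged 37.8 (SD 2.68). From the fifth to the ninth place each carrier overlapped the next between WT/WT hearts, and Slc25a39 and Slc25a13 changed places once the noted heart was left out. Without that heart only Slc25a39 and Slc25a13 still overlapped among these places. Slc25a42 lay above Slc25a22, a glutamate carrier at 22.0 CPM per kb (SD 5.21), without overlap.

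By substrate, ADP/ATP exchange held 62.5% of the summed level, phosphate 19.3% and dicarboxylates and oxoacids 7.15%. The 8 carriers of nucleotides, cofactors and vitamins together held 2.52%, close to the 4 of aspartate and glutamate with 2.45%. The 3 relatives of the uncoupling proteins (Slc25a14, Slc25a27 and Slc25a30) held 0.135%. Slc25a31, the ADP/ATP exchanger known from testis, reached 0.251 CPM per kb. Of the 5 carriers left untested, Slc25a2 had 84 reads over all libraries, Slc25a21 had 20, Slc25a41 had 5, Slc25a48 had 3 and Slc25a54 had 1. A count of 3 reads is 0.149 per 1 M reads, before TMM scaling, in the shallowest library. The last 4 averaged less than this in every genotype, so differences in them were not detectable at this depth. Slc25a2, a carrier of basic amino acids, averaged 0.171 CPM (SD 0.0142, n = 4) in WT/WT, 0.162 (SD 0.0725, n = 4) in WT/E3A and 0.228 (SD 0.144, n = 5) in E3A/E3A. It had a read in all 13 libraries, and its genotypes overlapped.

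**Figure D1:**
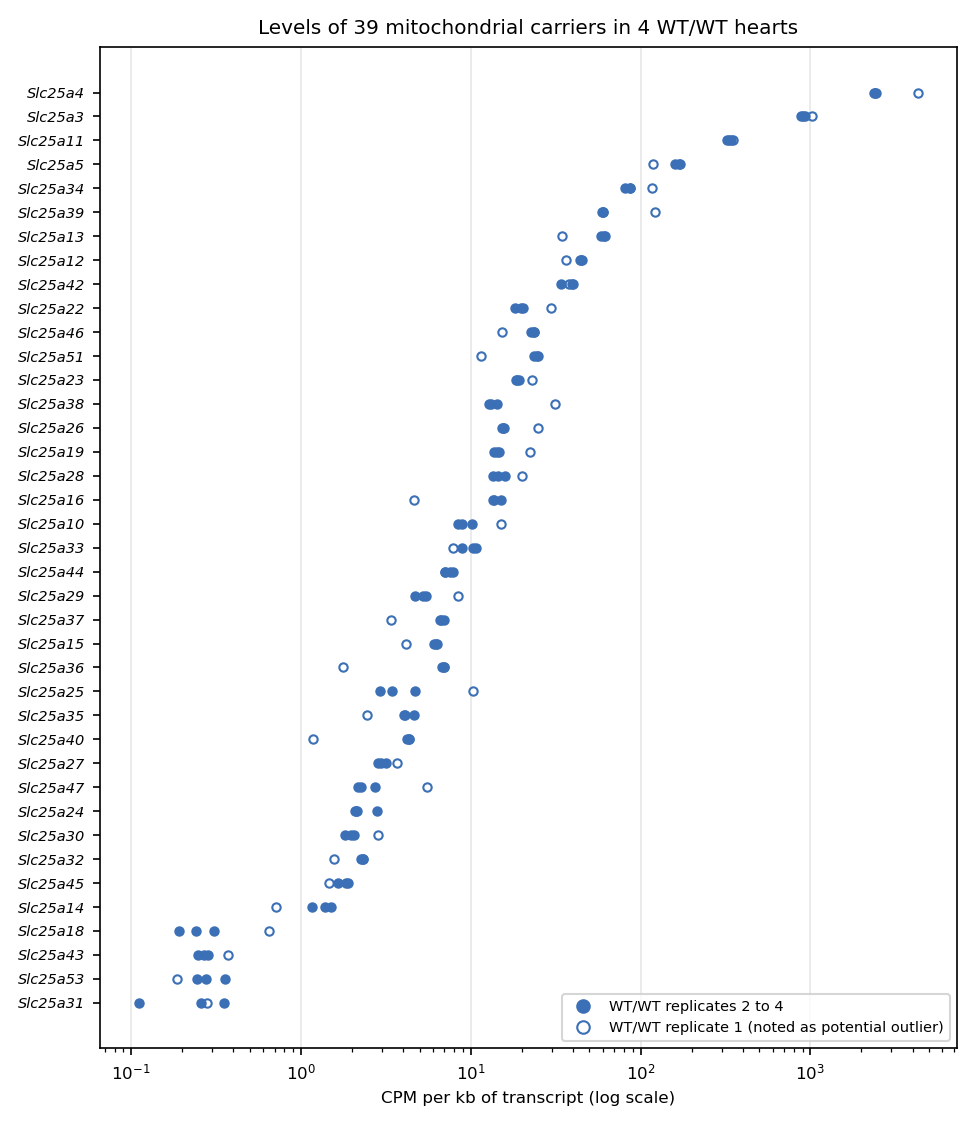
Level of each of the 39 tested carriers in the 4 WT/WT hearts, in CPM per kb of transcript on a log scale. Each point is 1 heart, with the noted heart (replicate 1) open. Slc25a4, Slc25a3 and Slc25a11 stand in that order above all others, and replicate 1 lies off the other 3 hearts for many carriers. Slc25a5 is next by mean, with its lowest value (118) below the highest of Slc25a39 (122).

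Comparing genotypes asks whether carrier mRNA differs in hearts whose CPT1B is less restrained. No carrier passed the edgeR quasi-likelihood test with Benjamini-Hochberg adjustment over all genes in any of the 3 comparisons, with 13 libraries or with 9. For E3A/E3A against WT/WT edgeR called 0 of 39 carriers in both fits, where 0.00695% of 14387 genes were called with 13 libraries and 0.271% of 14373 genes with 9. For WT/E3A against WT/WT it also called 0 of 39 carriers, beside 0.0% and 0.0209% of all genes. For E3A/E3A against WT/E3A the count was 0 of 39 beside 0.0% and 0.0417%. With so few calls over all genes, 0 among 39 carriers is close to the background.

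At an unadjusted p under 0.05, E3A/E3A against WT/WT gave 1 carrier with 13 libraries, beside 1.20% of all genes, and 5 of 39 (12.8%) with 9, beside 7.69%. WT/E3A against WT/WT gave 2 carriers with 13 libraries and 3 with 9, beside 0.813% and 6.36%. E3A/E3A against WT/E3A gave 0 and 5, beside 1.45% and 6.91%. DESeq2 called 1 carrier, Slc25a42, in E3A/E3A against WT/WT with 13 libraries, beside 0.168% of all genes to which it gave an adjusted p, and 0 with 9, beside 0.821%. It called 0 carriers in WT/E3A against WT/WT, beside 0.0% and 0.0932%, and 0 in E3A/E3A against WT/E3A, beside 0.0153% and 0.248%. Of the 16 edgeR carrier results at an unadjusted p under 0.05, all but 1 (Slc25a47 in WT/E3A against WT/WT) were values lower in the first-named genotype. These are not separate results. Carriers such as Slc25a42 recur among them, the 9 libraries are part of the 13, and the comparisons share libraries. The matching share of lower values over all genes was not computed.

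In E3A/E3A hearts 29 of the 39 tested carriers had a log2 fold change below 0 against WT/WT with 13 libraries (74.4%), where 56.3% of all genes did. With 9 libraries 27 of 39 did (69.2%), where 49.4% of all genes did. The sizes were small: the carriers' median was -0.06 with 13 libraries (all genes -0.02) and -0.04 with 9 (all genes 0.00). In WT/E3A hearts 21 of 39 carriers were below 0 against WT/WT in both fits, with a median of 0.00, beside 50.6% and 50.5% of all genes. Against WT/E3A, 27 of 39 carriers were lower in E3A/E3A in both fits, with medians of -0.08 and -0.03, beside 55.0% and 49.2% of all genes. Both comparisons of E3A/E3A share its libraries, so their counts are not separate evidence.

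**Figure D2:**
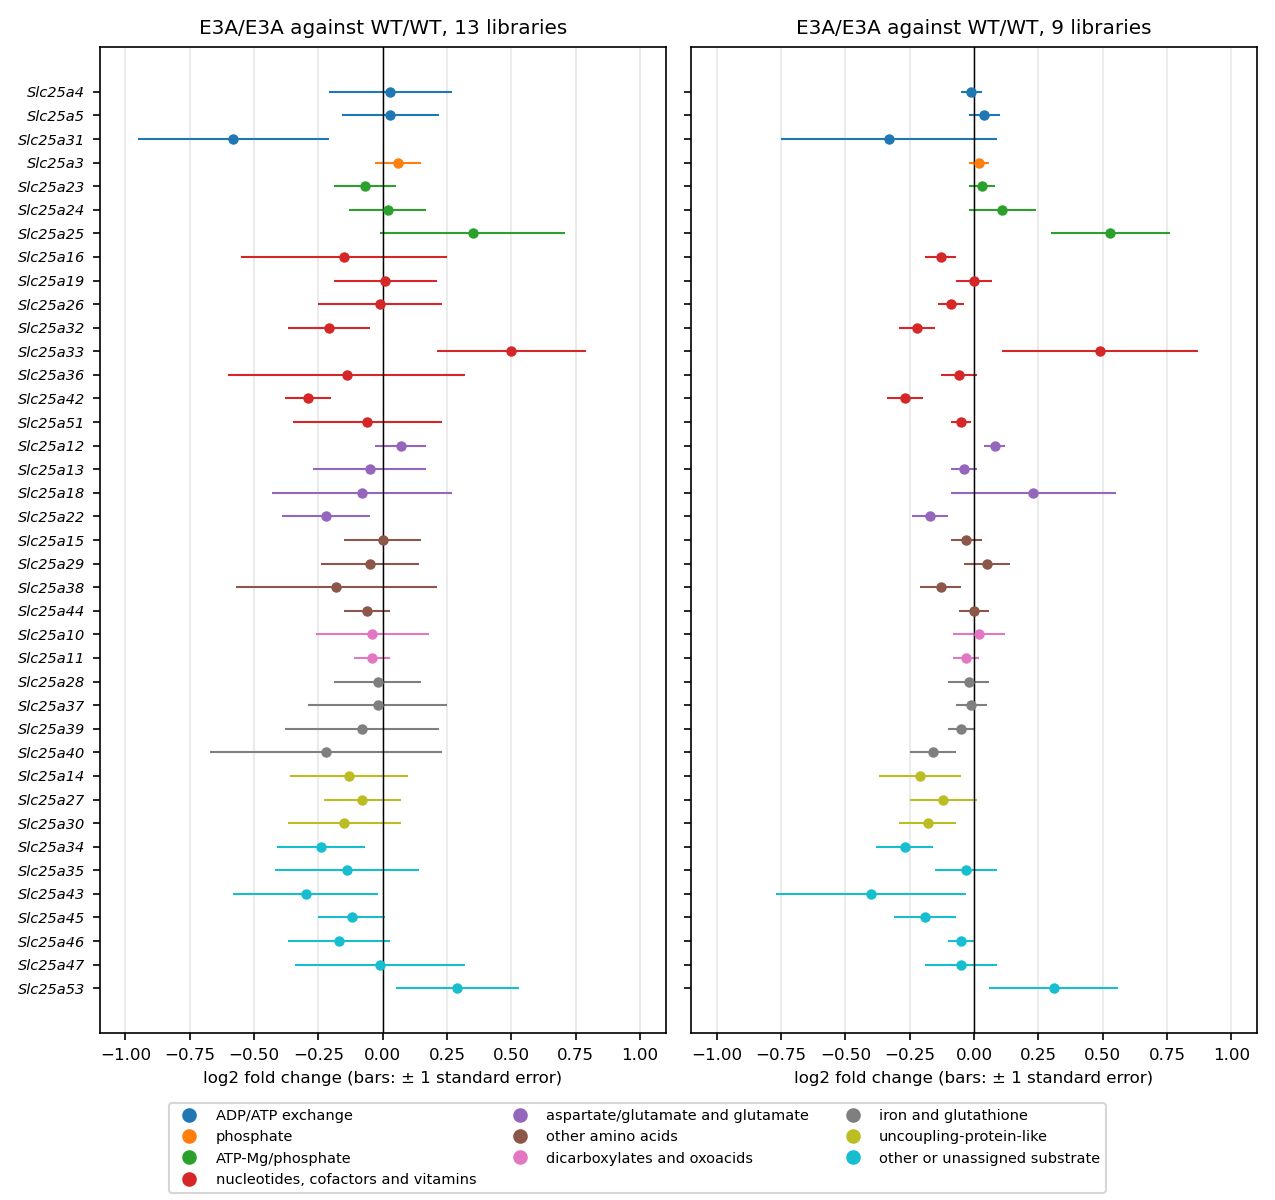
Log2 fold change of the 39 tested carriers in E3A/E3A against WT/WT hearts, by substrate class, with 13 libraries on the left and 9 on the right (bars are 1 standard error to each side). Most points lie slightly left of 0, with 29 of 39 below 0 on the left and 27 of 39 on the right, and none passed the adjusted test.

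Carriers of nucleotides, cofactors and vitamins include the one with the lowest p in E3A/E3A against WT/WT, in both fits. Of 8 tested, 0 were called in any comparison, and 6 were below 0 in E3A/E3A against WT/WT with 13 libraries (median -0.10) and 7 with 9 (median -0.08). Slc25a42 (chromosome 8, 70184340 to 70212305), which supplies the matrix with the coenzyme A that fatty acid oxidation uses, came first. In WT/WT replicates 1 to 4 it stood at 121, 109, 128 and 126 CPM. In WT/E3A replicates 1 to 4 it stood at 102, 109, 103 and 108 CPM, and in E3A/E3A replicates 1 to 5 at 102, 93.8, 101, 108 and 90.2 CPM. All 5 E3A/E3A hearts were below all 4 WT/WT hearts, while WT/E3A replicate 2 met the lowest WT/WT heart.

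The log2 fold change of Slc25a42 in E3A/E3A against WT/WT was -0.29 (SE 0.09, edgeR unadjusted p = 0.00562, edgeR adjusted p = 1) with 13 libraries and -0.27 (SE 0.07, edgeR unadjusted p = 0.00172, edgeR adjusted p = 0.188) with 9. WT/E3A against WT/WT gave -0.20 (SE 0.09) and -0.18 (SE 0.07), and E3A/E3A against WT/E3A gave -0.09 in both. DESeq2 called the first of these with an adjusted p of 0.0447, and with 9 libraries edgeR called it once WT/WT replicate 2 was left out (log2 fold change -0.35, edgeR adjusted p = 0.0472). It was the only tested carrier whose E3A/E3A and WT/WT hearts did not overlap with 13 libraries, where 0.862% of all genes were so separated, 0.563% with E3A/E3A lower. With 13 libraries 0 carriers were separated in WT/E3A against WT/WT, beside 1.14% of all genes, and 0 in E3A/E3A against WT/E3A, beside 0.994%. Unlike most carriers it hardly differed between the noted libraries (median 102 CPM) and the others (median 108 CPM).

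Sample titles carry a prefix of unstated meaning, and it divides the genotypes unevenly. Within prefix C2, where all 3 libraries are noted ones, Slc25a42 differed by -0.30 (log2, E3A/E3A minus WT/WT, 2 hearts and 1), and within C3 by -0.19 (2 hearts and 1). Within C3 WT/E3A and WT/WT differed by 0.00 (1 heart each), and within C4 E3A/E3A and WT/E3A differed by 0.05 (1 heart and 3). A fit with the prefix as block gave a difference in E3A/E3A against WT/WT of -0.22 with 13 libraries (edgeR adjusted p = 0.924) and -0.15 with 9. In that fit WT/WT replicates 3 and 4, the only hearts of prefix C6, carry no information on genotype. With 9 libraries the WT/WT side therefore rested on replicate 2, at 109 CPM the lowest WT/WT heart. The part of the prefix in this result was not tested beyond these values.

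Slc25a32, the carrier that takes folate and FAD into mitochondria (chromosome 15, 39091231 to 39112716), was tight in the hearts not noted. WT/WT replicates 2 to 4 had 13.4, 13.8 and 13.7 CPM, WT/E3A replicates 2 to 4 had 13.0, 13.2 and 12.8, and E3A/E3A replicates 3 to 5 had 11.5, 11.9 and 11.8. The noted hearts were lower, with 9.23 in WT/WT, 9.94 in WT/E3A and 8.32 and 10.6 in E3A/E3A. Among the 9 hearts the 3 genotypes did not overlap, with WT/WT highest and E3A/E3A lowest. The share of all genes with 3 groups so separated was not computed, and this carrier was named for its low p. With 9 libraries Slc25a32 gave -0.07 (SE 0.07, edgeR unadjusted p = 0.347, edgeR adjusted p = 0.892) in WT/E3A against WT/WT. In E3A/E3A against WT/E3A it gave -0.15 (SE 0.07, edgeR unadjusted p = 0.0463, edgeR adjusted p = 0.717). Its log2 fold change in E3A/E3A against WT/WT was -0.22 (SE 0.07, edgeR unadjusted p = 0.00619, edgeR adjusted p = 0.321) with 9 libraries and -0.21 (SE 0.16, edgeR adjusted p = 1) with 13. Within C2 it was 0.02 and within C3 -0.20.

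Slc25a33, which carries pyrimidine nucleotides, had the largest positive value of the class against WT/WT, in both E3A genotypes and both fits. WT/WT replicates 1 to 4 had 14.8, 20.4, 16.7 and 19.6 CPM and WT/E3A replicates 20.2, 19.5, 32.7 and 36.7. E3A/E3A replicates 1 to 5 had 15.2, 30.4, 18.3, 21.1 and 41.4 CPM. High values appeared in 2 WT/E3A and 2 E3A/E3A hearts and in no WT/WT heart, but the groups overlapped. The log2 fold change was 0.61 (SE 0.31, edgeR unadjusted p = 0.0709) for WT/E3A against WT/WT and 0.50 (SE 0.29, edgeR unadjusted p = 0.115) for E3A/E3A against WT/WT with 13 libraries, and edgeR's adjusted p was 1 for each. With 9 libraries the second was 0.49 (SE 0.38), and 0.05 once E3A/E3A replicate 5 was left out. Within C2 it was 0.54 and within C3 0.43, and C3 holds replicate 5.

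Slc25a16, linked to coenzyme A transport, had 40.7, 42.1 and 38.7 CPM in E3A/E3A replicates 3 to 5 against 42.5, 47.3 and 43.2 in WT/WT replicates 2 to 4. That gave a log2 fold change of -0.13 (SE 0.06, edgeR unadjusted p = 0.0416, edgeR adjusted p = 0.632). Slc25a26, which imports S-adenosylmethionine, had 28.7, 28.1 and 27.0 CPM against 30.2, 29.5 and 29.9, a log2 fold change of -0.09 (SE 0.05). In these 9 hearts both were lower in E3A/E3A without overlap, whereas the 13 hearts overlapped for both, with log2 fold changes of -0.15 (SE 0.40) and -0.01 (SE 0.24).

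**Figure D3:**
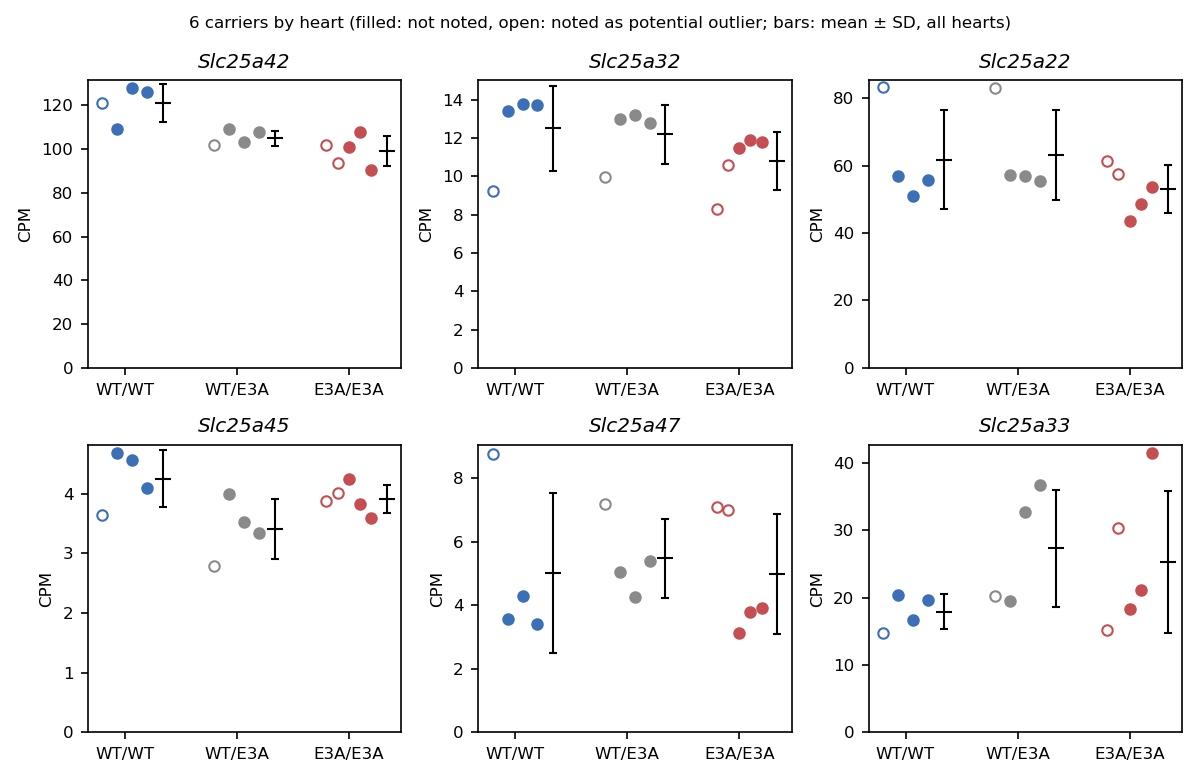
CPM of 6 carriers in each of the 13 hearts by genotype, with noted hearts open and the mean and SD of all hearts of a genotype as a bar at the right. Slc25a42 is lower in every E3A/E3A heart (90.2 to 108 CPM) than in any WT/WT heart (109 to 128 CPM), and for Slc25a47 the open points lie above all filled ones (7.00 to 8.75 CPM).

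Of the 3 ADP/ATP exchangers 0 were called in any genotype comparison. Slc25a4 had 8293, 4546, 4629 and 4717 CPM in WT/WT replicates 1 to 4 and 7192, 4666, 4500.1 and 4888 in WT/E3A replicates 1 to 4. E3A/E3A replicates 1 to 5 had 7739.6, 6796, 4638, 4667 and 4521 CPM. The 4 noted hearts were far above the other 9, which lay within a narrow range in all genotypes. Its log2 fold change in E3A/E3A against WT/WT was 0.03 (SE 0.24) with 13 libraries and -0.01 (SE 0.04) with 9.

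Slc25a5 gave 0.03 (SE 0.19) and 0.04 (SE 0.06) in the same comparison. A pseudogene of Slc25a5 is annotated, and the counting of reads with several matches is not given in the sources used here. Slc25a31 gave -0.58 (SE 0.37) and -0.33 (SE 0.42), from 5 to 33 reads per library. Slc25a3, the phosphate carrier, gave 0.06 (SE 0.09) with 13 libraries and 0.02 (SE 0.04) with 9. None of these 4 passed the test in any comparison.

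Among the 3 tested ATP-Mg/phosphate carriers, which adjust the matrix pool of adenine nucleotides, 0 were called. Their log2 fold changes in E3A/E3A against WT/WT ran from -0.07 to 0.35 with 13 libraries and from 0.03 to 0.53 with 9. Slc25a23 gave -0.07 (SE 0.12) and 0.03 (SE 0.05), and Slc25a24 gave 0.02 (SE 0.15) and 0.11 (SE 0.13). Slc25a25 gave 0.35 (SE 0.36, edgeR unadjusted p = 0.351, edgeR adjusted p = 1) and 0.53 (SE 0.23, edgeR unadjusted p = 0.0524, edgeR adjusted p = 0.662), the latter the largest positive carrier value of that comparison with 9 libraries. Within C2 it was -0.21 and within C3 0.10, and this carrier was named after its values were seen. All 3 were above 0 with 9 libraries, and E3A/E3A and WT/WT hearts overlapped for each.

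Of the 4 aspartate and glutamate carriers 0 were called, and Slc25a12 and Slc25a13 export aspartate in the malate-aspartate shuttle. Slc25a12 had 298, 303 and 293 CPM in E3A/E3A replicates 3 to 5 against 279, 282 and 287 in WT/WT replicates 2 to 4, the 1 carrier that was higher without overlap in those 9 libraries. Its log2 fold change was 0.08 (SE 0.04, edgeR unadjusted p = 0.103, edgeR adjusted p = 0.759), and 0.07 (SE 0.10) with all hearts, which overlapped. Slc25a13 gave -0.04 (SE 0.05) with 9 libraries and -0.05 (SE 0.22) with 13.

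Slc25a22, a glutamate carrier (chromosome 7, 141429744 to 141437892), had 83.4, 56.8, 51.0 and 55.8 CPM in WT/WT replicates 1 to 4. WT/E3A replicates 1 to 4 had 83.0, 57.2, 56.8 and 55.5 CPM, and E3A/E3A replicates 1 to 5 had 61.4, 57.6, 43.7, 48.5 and 53.6 CPM. In the 9 hearts every E3A/E3A value was below every WT/E3A value, and replicate 5 overlapped WT/WT. E3A/E3A against WT/E3A gave a log2 fold change of -0.22 (SE 0.07, edgeR unadjusted p = 0.00663, edgeR adjusted p = 0.643) with 9 libraries and -0.25 (SE 0.17, edgeR adjusted p = 1) with 13. Against WT/WT it gave -0.17 (SE 0.07) and -0.22 (SE 0.17), and within C2 and C3 -0.49 and -0.23. With 13 libraries, leaving out WT/WT replicate 1 gave -0.04 against WT/WT, and leaving out WT/E3A replicate 1 gave -0.09 against WT/E3A. Each of these fits sets noted E3A/E3A hearts against a group without a noted heart. They therefore cannot tell how far 1 heart carries the value. Slc25a18, a relative of Slc25a22, had 0.367 to 1.24 CPM. In E3A/E3A against WT/WT it gave 0.23 (SE 0.32) with 9 libraries and -0.08 (SE 0.35) with 13.

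Of the other classes, the 4 tested carriers of other amino acids (ornithine, basic amino acids, glycine and branched-chain amino acids) ran from -0.18 to 0.00 with 13 libraries in E3A/E3A against WT/WT and from -0.13 to 0.05 with 9. Slc25a11 gave -0.04 (SE 0.07) and -0.03 (SE 0.05). It shares 189 exonic bases with Rnf167 on the opposite strand, and whether counting used strand is not given in the sources used here. All 4 iron and glutathione carriers were below 0 in both fits, from -0.22 to -0.02 and from -0.16 to -0.01. Slc25a40, with a role in glutathione import like Slc25a39, had 11.6, 10.7 and 9.48 CPM in E3A/E3A replicates 3 to 5 against 12, 12 and 11.7 in WT/WT replicates 2 to 4. That is a log2 fold change of -0.16 (SE 0.09), without overlap. The uncoupling-protein relatives were also all below 0, from -0.15 to -0.08 and from -0.21 to -0.12. EdgeR called 0 carriers in each of these classes.

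Among carriers of other or unassigned substrate, 6 of 7 were below 0 in E3A/E3A against WT/WT in both fits, and 0 were called. Slc25a34 had 310.5, 232, 215 and 232 CPM in WT/WT replicates 1 to 4, and 322, 206, 222 and 249.8 in WT/E3A. E3A/E3A replicates 1 to 5 had 221, 261, 160, 185 and 219.7 CPM. With 9 libraries its log2 fold change was -0.27 (SE 0.11, edgeR unadjusted p = 0.0460, edgeR adjusted p = 0.644) against WT/WT and -0.26 (SE 0.11, edgeR unadjusted p = 0.0482, edgeR adjusted p = 0.718) against WT/E3A, and E3A/E3A replicate 5 overlapped both groups. Slc25a43 was lower without overlap in the 9 hearts, at 0.176 to 0.249 CPM against 0.275 to 0.315, with an SE of 0.37 around -0.40.

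Slc25a45 and Slc25a47 set WT/E3A hearts apart in p rank but not by an adjusted test. Slc25a45 had 3.64, 4.68, 4.56 and 4.10 CPM in WT/WT and 2.79, 4.00, 3.52 and 3.34 CPM in WT/E3A replicates 1 to 4. Its log2 fold change was -0.32 (SE 0.14, edgeR unadjusted p = 0.0366, edgeR adjusted p = 1) with 13 libraries and -0.30 (SE 0.12, edgeR unadjusted p = 0.0300, edgeR adjusted p = 0.758) with 9. E3A/E3A hearts, at 3.59 to 4.24 CPM, overlapped both groups. Within C3 the WT/E3A heart and the WT/WT heart differed by -0.22.

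Slc25a47, best known from liver, lies 162 bases from the start of Slc25a29 on chromosome 12, on the opposite strand. In the hearts not noted it had 5.04, 4.27 and 5.41 CPM in WT/E3A, 3.58, 4.29 and 3.41 in WT/WT and 3.14, 3.80 and 3.91 in E3A/E3A. With 9 libraries its log2 fold change was 0.39 (SE 0.14, edgeR unadjusted p = 0.0151, edgeR adjusted p = 0.696) for WT/E3A against WT/WT. It was -0.44 (SE 0.14, edgeR unadjusted p = 0.00802, edgeR adjusted p = 0.678) for E3A/E3A against WT/E3A. The noted hearts stood at 7.00 to 8.75 CPM in every genotype, and with them the values were 0.13 (SE 0.35) and -0.14 (SE 0.33). Within C3 they were 0.48 and -0.51, with 1 WT/E3A heart. Liver markers (Alb, Apoa1 and Ttr) summed to 0.174 to 14.8 CPM in E3A/E3A, 5.09 to 34.7 in WT/E3A and 0.197 to 50.8 in WT/WT, and their part in this value was not tested.

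Counting separated hearts over the family, E3A/E3A and WT/WT did not overlap for 7 of 39 carriers in the 9 libraries, beside 14.2% of all genes. Of these, 6 were lower (Slc25a16, Slc25a26, Slc25a32, Slc25a40, Slc25a42 and Slc25a43), beside 6.96% of all genes, and 1 was higher, beside 7.19%. WT/E3A and WT/WT did not overlap for 4 (Slc25a26, Slc25a32, Slc25a38 and Slc25a45), beside 12.7% of all genes, and all 4 were lower in WT/E3A, beside 6.28%. E3A/E3A and WT/E3A did not overlap for 5 (Slc25a16, Slc25a22, Slc25a32, Slc25a47 and Slc25a51), beside 11.2%, and all 5 were lower in E3A/E3A, beside 5.53%. Slc25a38 and Slc25a51 were named after their values were seen.

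Carrier levels in the noted libraries were set beside those in the other 9. This is a description without a test, because the note in the labels may rest on expression. Of 39 carriers, 11 were higher in all 4 noted libraries than in any of the 9, beside 25.9% of all genes. Another 12 were lower in all 4, beside 27.1%, and 16 overlapped. These shares lie near the background. The carriers named next were chosen after their values were seen.

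Higher in the noted libraries were Slc25a38, a glycine carrier needed for heme synthesis, with 36.6 to 60.8 CPM against 19.2 to 25.6, and Slc25a39 with 143 to 206 against 90.9 to 103. Slc25a4 stood at 6796 to 8293 CPM against 4500.1 to 4888, a ratio of means of 1.62. Slc25a25, an ATP-Mg/phosphate carrier, stood at 23.8 to 33.8 against 9.60 to 21.5. Slc25a26 also stood higher, at 42.7 to 52.3 against 27.0 to 30.2.

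Lower in them were Slc25a36, a pyrimidine nucleotide carrier, with 9.28 to 17.0 CPM against 32.3 to 39.5, and Slc25a40 with 3.06 to 5.22 against 9.48 to 12.1. Their ratios of means were 0.352 and 0.361. Slc25a16 stood at 14.5 to 25.4 CPM against 38.7 to 47.3, and Slc25a51, the NAD carrier, at 46.7 to 77.7 against 103 to 111. Slc25a37, an iron importer, Slc25a13 and Slc25a5 were lower too, with ratios of 0.573, 0.645 and 0.715. By contrast Slc25a3 and Slc25a11 overlapped, with ratios of 1.11 and 1.03.

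The carriers' share of all reads, without TMM scaling, ran from 0.874% to 0.921% in the 9. Among the noted libraries it was 1.03% in WT/WT replicate 1, 0.894% in WT/E3A replicate 1, and 1.09% and 1.03% in E3A/E3A replicates 1 and 2. Slc25a4 took 63.3 to 67.0% of the carrier reads in the noted libraries and 53.9 to 55.0% in the 9. The sum of cardiomyocyte markers also stood apart, with 113885 to 167479.6 CPM in the noted libraries and 70544 to 80166 CPM in the 9. Fibroblast markers (Col1a1, Col1a2, Pdgfra, Dcn and Lum) summed to 1098 to 2254 CPM against 831 to 952, and macrophage markers to 66.3 to 75.1 against 53.0 to 64.6. Endothelial markers overlapped, at 1130.1 to 1329 against 1001 to 1267 CPM. Within each list the genes did not move together. Of 8 cardiomyocyte markers 4 were higher in all 4 noted libraries and 1 was lower, Pln at 789 to 2484 CPM against 5792 to 6564. Of 5 fibroblast markers 2 were higher and 2 lower, with Col1a1 at 384 to 1111 CPM against 166 to 203 and Dcn at 146 to 268 against 389.6 to 466. Of 4 macrophage markers Csf1r was higher, at 50.9 to 61.3 CPM against 35.3 to 43.5, and Cd68 lower, at 0.779 to 2.68 against 4.24 to 5.53. Of 5 endothelial markers 1 was higher and 2 lower. The part of these markers in the carriers' difference was not tested. WT/WT and WT/E3A each hold 1 noted library and E3A/E3A holds 2.

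**Figure D4:**
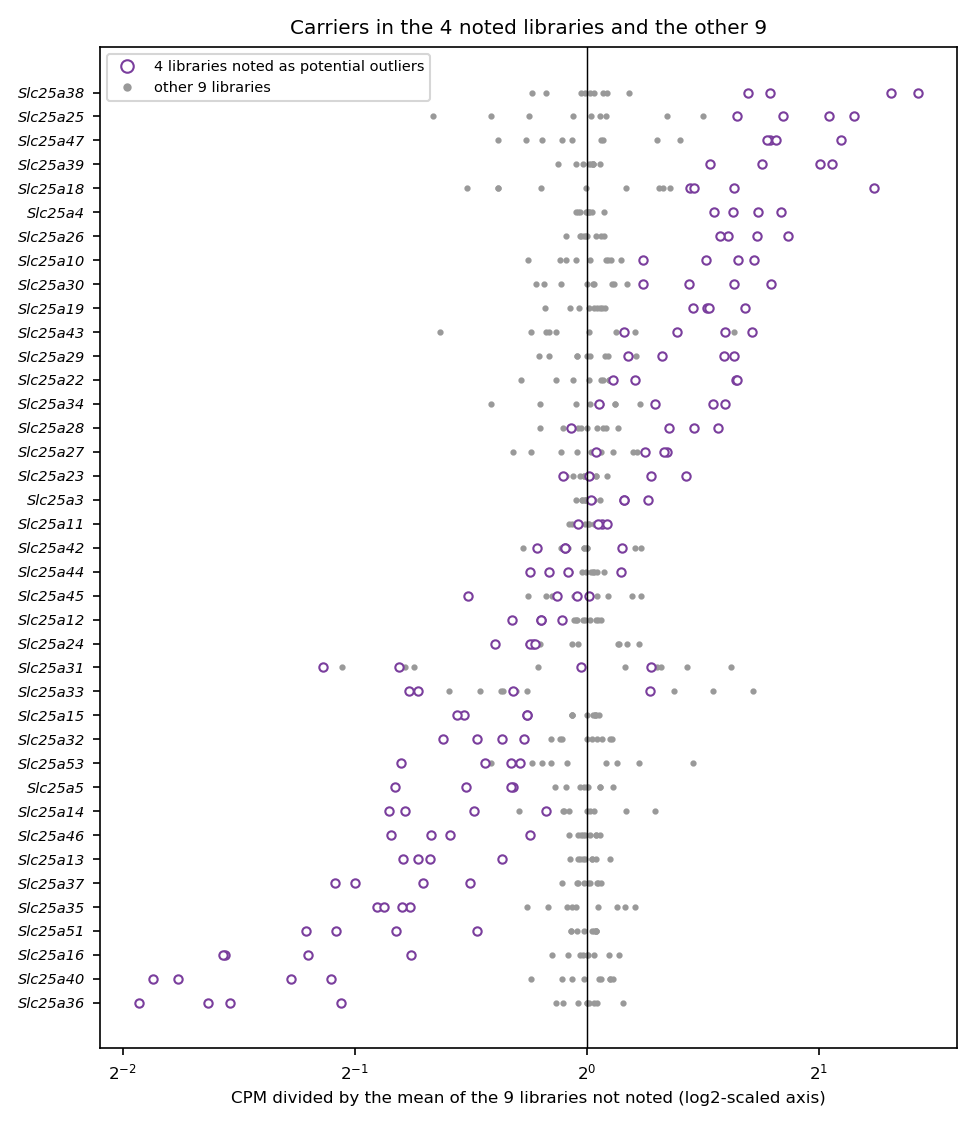
CPM of each tested carrier divided by its mean in the 9 libraries that were not noted, on a log2-scaled axis, sorted by the mean of the noted libraries. Open circles are the 4 noted libraries and grey dots the other 9. Slc25a36, Slc25a40 and Slc25a16 lie farthest to the left and Slc25a38 farthest to the right, and 16 of 39 carriers overlap.

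Pairs of related carriers were set side by side as the share of one member in the sum of both, per kb. Among the 9 hearts Slc25a4 made up 93.0 to 94.0% of its sum with Slc25a5 in all genotypes, and 96.3 to 97.5% in the noted hearts. Slc25a12 held 41.5 to 45.1% of the aspartate/glutamate pair with Slc25a13, against 47.7 to 52.4% in the noted hearts. By genotype, in the 9, it averaged 42.4% (SD 0.893, n = 3) in WT/WT, 42.8% (SD 1.74) in WT/E3A and 44.5% (SD 0.732) in E3A/E3A. That is a small upward order with WT/E3A overlapping both others. Over all 13 hearts the means were 44.7% (SD 4.57, n = 4) in WT/WT, 45.2% (SD 5.0, n = 4) in WT/E3A and 46.5% (SD 3.14, n = 5) in E3A/E3A. With WT/WT replicate 1 at 51.4%, the WT/WT and E3A/E3A hearts then overlapped.

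The iron importer Slc25a37 held 29.6 to 33.9% of its pair with Slc25a28 in the 9 and 14.5 to 25.6% in the noted hearts. Slc25a39 held 92.8 to 94.5% of its pair with Slc25a40, and 97.8 to 99.1% in the noted hearts. For the pyrimidine nucleotide pair, Slc25a33 held 59.1% (SD 2.21) in WT/WT, 69.0% (SD 6.04) in WT/E3A and 66.4% (SD 9.07) in E3A/E3A among the 9. All 3 WT/E3A hearts, at 62.7, 69.6 and 74.7%, were above the 3 WT/WT hearts, at 56.6 to 60.9%, whereas E3A/E3A hearts, at 58.7 to 76.4%, overlapped both. The noted hearts stood at 77.5 to 83.2%, and with WT/WT replicate 1 at 81.5% the WT/WT and WT/E3A hearts overlapped, with means of 64.7% (SD 11.3, n = 4) and 72.5% (SD 8.62, n = 4). How often shares of gene pairs separate between genotypes was not computed, here or for Slc25a12 with Slc25a13. Of all single genes, 12.7% separated WT/E3A from WT/WT in either direction among the 9. Slc25a14 held 36.8 to 43.6% of its pair with Slc25a30 in the 9 and 17.7 to 30.5% in the noted hearts. The shares of Slc25a23 with Slc25a24 and of Slc25a22 with Slc25a18 overlapped between noted and other hearts.

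**Figure D5:**
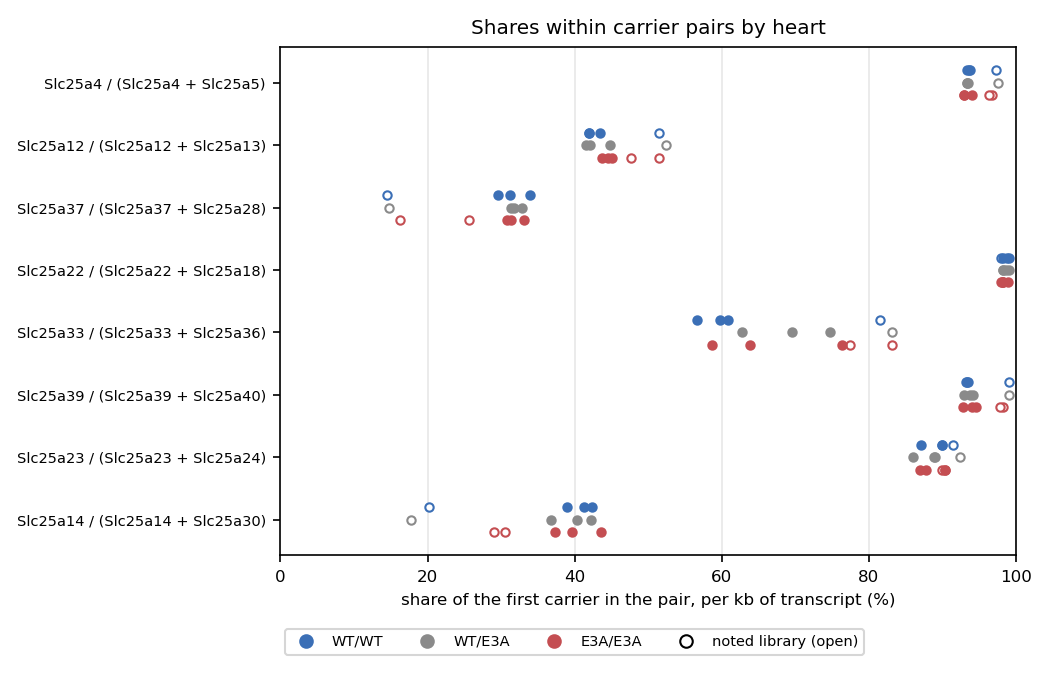
Share of the first carrier of 8 related pairs in the sum of both, in percent, per kb of transcript, for every heart by genotype, with noted hearts open. Filled points of the 3 genotypes lie together in most pairs. The noted hearts stand apart for Slc25a4, Slc25a12, Slc25a37, Slc25a33, Slc25a39 and Slc25a14. For Slc25a33 the filled points spread from 56.6 to 76.4% and the open ones from 77.5 to 83.2%.

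Genes that work with the carriers were counted in the same fits. Of the 12 found members of the carrier import route through TOM70 and TIM22, which inserts these proteins in the inner membrane, edgeR called 0 in any comparison, and the median in E3A/E3A against WT/WT was -0.02 with 13 libraries and with 9. Of 19 tested other inner membrane transporters, among them the pyruvate carrier and the calcium uniporter, 0 were called, with 14 of 19 and 12 of 19 below 0. The 3 outer membrane VDAC channels, 4 malate-aspartate shuttle enzymes, 15 ATP synthase subunits and 8 genes of mitochondrial iron use also gave 0 calls. Their medians in E3A/E3A against WT/WT lay between -0.04 and 0.03 in both fits.

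Of 6 regulators known to act on genes of mitochondrial proteins, edgeR called 0. All 6 were above 0 in WT/E3A against WT/WT, with medians of 0.19 with 13 libraries and 0.18 with 9 (all genes 0.00). In E3A/E3A against WT/WT 3 were above 0 with 13 libraries and 4 with 9, with medians of -0.01 and 0.05. In E3A/E3A against WT/E3A 4 were below 0 with 13 libraries and 5 with 9. The regulator named next is the 1 with an edgeR unadjusted p under 0.05 in that comparison with 13 libraries. Ppargc1b, a coactivator of mitochondrial biogenesis, had 49.7 CPM in E3A/E3A and 70.3 CPM in WT/E3A, a log2 fold change of -0.50 (SE 0.14, edgeR unadjusted p = 0.00305, edgeR adjusted p = 1), and -0.37 (SE 0.15) with 9 libraries. EdgeR likewise called 0 genes in every cell type marker list. In E3A/E3A against WT/WT the 4 smooth muscle markers were all above 0, with medians of 0.27 and 0.28. The 4 tested white adipocyte markers had medians of -0.50 with 13 libraries and 0.51 with 9. All 3 liver markers were below 0, with medians of -1.02 and -1.31. Of 5 fibroblast markers 3 were above 0 with 13 libraries (median 0.04) and 5 with 9 (median 0.10), where 2 had an unadjusted p under 0.05 in edgeR. The 1 tested brown adipocyte marker, Cidea, gave -0.29 (SE 0.14, edgeR unadjusted p = 0.0709) with 13 libraries and -0.32 (SE 0.07, edgeR unadjusted p = 0.000428, edgeR adjusted p = 0.107) with 9. Medians of the cardiomyocyte, endothelial, macrophage, skeletal muscle, nerve and red blood cell lists lay between 0.01 and 0.15 in both fits. The part of these markers in the carriers' values was not tested.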

How the data were processed

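The authors deposited a file of read counts for each heart, and every file lists the same 24061 gene symbols. Per the submitters' processing notes, STAR 2.4.0 and featureCounts 1.4.4 were used with the mm10 (GRCm38) genome. Annotation, strand setting and the counting of reads with several matches are not given in the sources used here. Genotypes came from the sample labels, and replicate numbers only name hearts in accession order.

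The 3 genotypes were fitted together on these counts with edgeR 4.0.16 under R 4.3.3 (filterByExpr with a minimum count of 10, TMM factors, robust quasi-likelihood F test), once with 13 libraries (14387 genes) and once with the 9 not noted as potential outliers (14373 genes). Benjamini-Hochberg adjustment ran over all genes tested, with a threshold of 0.05. CPM are scaled over all 13 libraries. Levels between genes were divided by the length of the principal GENCODE M21 transcript. Fold changes are edgeR's log2 values with standard errors. Within-prefix differences are of log2(CPM + 0.1). Precision reflects the spread between hearts, with a biological coefficient of variation of 28.9% over 13 libraries and 7.85% over 9. Depth, 20.1 M to 52.6 M reads per library, also limits it for carriers with few reads.

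Alternatives were median-ratio and upper-quartile factors, DESeq2 1.42.0, limma 3.58.1 (voom with quality weights), no filter, the title prefix as a block, only the 2 genotypes compared, and leaving out each library. Carriers described in full were the 3 of lowest p in each comparison, any that were called, the 10 highest per kb in WT/WT, members of related pairs, and those whose E3A/E3A and WT/WT hearts did not overlap among the 9. The carriers, substrate classes, partner lists and marker lists were chosen with earlier results of these data known. In the prefix block the C6 hearts, WT/WT replicates 3 and 4, carry no information on genotype.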

Additional observations from a re-analysis of the deposited data

Results flagged for a closer look

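For the 27 carriers described in full, each genotype's CPM values were examined for 1 heart far from the rest by Dixon's criterion, in 81 groups, and 21 hearts were picked out. Chance alone picks out about 1 in 20 groups. Of the 21 values, 12 belong to WT/WT replicate 1 and 8 to WT/E3A replicate 1, both noted as potential outliers in the labels, and these carriers are measured in the same libraries, so the values are not independent. No E3A/E3A heart was picked out. The criterion looks for 1 heart, and E3A/E3A holds 2 noted hearts that can hide each other. For Slc25a4 they had 7739.6 and 6796 CPM and the other E3A/E3A hearts 4521 to 4667. The absence therefore does not show that no E3A/E3A heart lay apart.

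WT/WT replicate 1 stood high for Slc25a4 (8293 CPM, others 4546 to 4717), the ADP/ATP exchanger of muscle, and for the glutathione carrier Slc25a39 (206 CPM, others 100.3 to 101). It was also high for Slc25a23 at 77.3 CPM, Slc25a26 at 47.7 CPM and Slc25a47 at 8.75 CPM. It stood low for the aspartate/glutamate carriers Slc25a12 (232 CPM, others 279 to 287) and Slc25a13 (108 CPM, others 183 to 192). It was low as well for Slc25a16 at 14.5 CPM, Slc25a32 at 9.23 CPM, Slc25a36 at 9.28 CPM, Slc25a37 at 14.1 CPM and Slc25a40 at 3.30 CPM.

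WT/E3A replicate 1 stood high for Slc25a4 (7192 CPM, others 4500.1 to 4888), Slc25a22 at 83.0 CPM, Slc25a26 at 52.3 CPM and Slc25a39 at 199 CPM. It was low for Slc25a5 (119 CPM, others 207 to 219.7), Slc25a16 at 14.6 CPM, Slc25a32 at 9.94 CPM and Slc25a37 at 13.3 CPM. The remaining value was WT/WT replicate 2 for Slc25a24, at 9.59 CPM against 7.14 to 7.36 in the other WT/WT hearts.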

How the results depend on the processing

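The count of 0 called carriers held in all 3 comparisons and both fits under every setting run, with these exceptions in E3A/E3A against WT/WT. DESeq2 called 1 with 13 libraries, and leaving out 1 library at a time gave 0 to 1 with 9, the call arising without WT/WT replicate 2. Both calls were Slc25a42. Of 698 recomputed values for 38 fold changes of single carriers, 683 kept direction and side of the threshold, 13 reversed direction and 2 became calls. With the title prefix as a block, Slc25a16 was 0.28 in E3A/E3A against WT/WT and 0.12 against WT/E3A, and Slc25a40 was 0.19 in E3A/E3A against WT/WT, all with 13 libraries. Upper-quartile factors put Slc25a26 at 0.00. Without 1 library in turn, Slc25a26 in E3A/E3A against WT/WT ranged from -0.12 to 0.19, the top value without WT/WT replicate 1. Slc25a47 ranged from -0.03 to 0.55 in WT/E3A against WT/WT and from -0.30 to 0.02 in E3A/E3A against WT/E3A, with 13 libraries, and -0.03 and 0.02 arose without WT/E3A replicate 1. Slc25a31 with 9 libraries ranged from -0.60 to 0.03, the latter without WT/WT replicate 4. The cause was not tested. No paired analysis was possible because the replicate numbers only follow accession order and the labels pair no hearts.

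Carriers below 0 in E3A/E3A against WT/WT numbered 29 with 13 libraries (21 to 31 over the other settings, lowest without 1 library) and 27 with 9 (23 to 30). Over all genes and with 13 libraries, edgeR called 1 gene between E3A/E3A and WT/WT, 0 between WT/E3A and WT/WT and 0 between E3A/E3A and WT/E3A. In this order DESeq2 called 24, 0 and 3 and voom with quality weights 73, 5 and 5. With 9 libraries edgeR called 39, 3 and 6, DESeq2 97, 18 and 34, and voom 117 and 6 in the first pair. The prefix block then gave 10, 0 and 2, and leaving out libraries 8 to 43 in the first.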
